A study of Mus musculus with 4 samples.

Results

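The genes described here are the Wnt ligands, their Frizzled receptors and the secreted proteins that bind or counteract them, in mouse retina sorted into rods and other cells with and without Ezh2. They were defined by gene symbol, and the set was chosen with earlier results of these data known. It holds every Wnt and Frizzled gene, Sfrp1, Sfrp2, Sfrp4, Sfrp5 and Frzb, and Dkk1 to Dkk4. This gave 38 of 21825 genes, made up of 19 Wnt ligands, 10 Frizzled receptors, 5 secreted Frizzled-related proteins and 4 Dickkopf proteins. All 38 had a usable value in every library.

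Poly(A) RNA was sequenced from retina at postnatal day 12 of mice on the slc:ICR background, after dissociation and sorting on Cd73, the ectonucleotidase that rods and rod precursors display, whose gene is Nt5e. The Cd73-negative fraction (Cd73N) holds the cells without the enzyme and the Cd73-positive fraction (Cd73P) the rods, and each was taken from wild-type retina (WT) and from Ezh2-cKO retina, in which floxed Ezh2 was deleted by Cre under the DKK3 driver, active in retinal progenitors. Wild-type mice were littermates, and whether they carried Cre is not given in the sources used here. There was 1 library for each of the 4 groups, the number of retinas in each is not given for this age, and no difference below has a replicate check or a p-value.

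Wnt proteins are secreted, lipid-modified signals that bind Frizzled receptors on the cell surface. With the co-receptors Lrp5 and Lrp6 they stabilise beta-catenin, which acts with Tcf and Lef proteins on target genes, while other Wnt proteins act through Frizzleds on cell polarity and movement. Secreted Frizzled-related proteins bind Wnt proteins outside the cell, Dickkopf proteins of the Dkk1 type block the co-receptors, and Fzd4 is also the receptor for Norrin, a ligand needed for the growth of retinal vessels.

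Values are FPKM, the fragments of a gene scaled to its exon length and to the mapped total of the library, so levels can be set side by side between genes. Ratios are differences of log2(FPKM + 1), which understates the change of weakly expressed genes, and their standard error (SE) covers counting within a library only. A gene was counted as higher or lower at a 1.5-fold difference on that scale, a log2 ratio of 0.58.

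Several facts of the libraries bear on every comparison. Relative depth differed by at most 1.17 times between libraries, and 10352 to 12743 genes reached 1 FPKM. Ezh2 was at 14.1 FPKM in Cd73N WT and 15.9 in Cd73N Ezh2-cKO, and at 5.38 and 3.45 in Cd73P, so that the gene's level went against the genotype label in Cd73N; how much of the signal comes from the floxed part cannot be told from gene-level values, and Ezh2-cKO here means the library labelled so. Nt5e was at 125 and 123 FPKM in the Cd73P libraries and at most 0.844 in Cd73N, and 7 rod markers summed to 12161 and 16804 FPKM in Cd73P and to 782 and 759 in Cd73N. Xist was higher and the summed level of 4 Y-linked genes lower in both Ezh2-cKO libraries (26.8 against 0.716 FPKM in Cd73N and 27.9 against 0.496 in Cd73P for the Y-linked sum), so sex composition and genotype cannot be told apart.

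Of the 38 genes, 20 reached 1 FPKM in at least 1 library. The heat map of levels by library shows them in the order of ligands, receptors and secreted antagonists. Summed over all 38, the level was 186 FPKM in Cd73N WT, 1055 in Cd73N Ezh2-cKO, 27.2 in Cd73P WT and 53.9 in Cd73P Ezh2-cKO. Most of the Cd73N sum was Dkk3, with 65.8% in WT and 86.8% in Ezh2-cKO. The 10 Frizzleds summed to 42.4 FPKM in Cd73N WT, 87.2 in Cd73N Ezh2-cKO, 15.8 in Cd73P WT and 16.9 in Cd73P Ezh2-cKO. The 19 ligands came to 7.25, 10.9, 4.54 and 6.39 FPKM in the same order, below the receptors in every library.

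**Figure D1:**
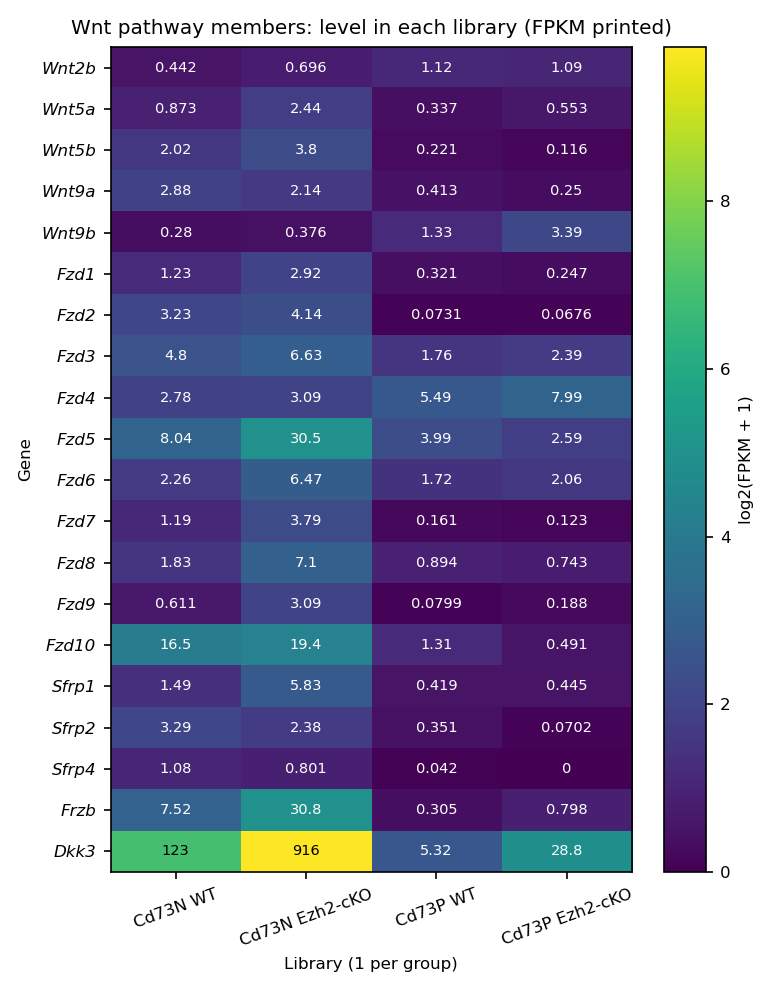
Level of the 20 genes that reached 1 FPKM in at least 1 library, with 1 row per gene, 1 column per library (1 library per group), the colour giving log2(FPKM + 1) and the printed number the FPKM. Dkk3 has the highest value in 3 of the 4 libraries, at 916 FPKM in Cd73N Ezh2-cKO, and Fzd4 and Wnt9b are higher in both Cd73P libraries than in both Cd73N libraries.

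The order of the genes differed between libraries. In Cd73N WT the order was Dkk3, Fzd10, then Fzd5 and Frzb with overlapping deposited bounds, then Fzd3. In Cd73N Ezh2-cKO it was Dkk3, then Frzb and Fzd5 with overlapping bounds, then Fzd10. In Cd73P WT, Fzd4 and Dkk3 had overlapping bounds and were followed by Fzd5, and in Cd73P Ezh2-cKO the order was Dkk3, Fzd4 and Wnt9b, each outside the bounds of the next. Thus the receptor with the highest level was Fzd10 in Cd73N WT with 38.8% of the Frizzled sum, Fzd5 in Cd73N Ezh2-cKO with 35.0%, and Fzd4 in Cd73P with 34.8% in WT and 47.3% in Ezh2-cKO.

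To see what the members share in sequence, the promoters of 4 of them are shown, Frzb and Fzd5 for their large difference between genotypes in Cd73N, and Wnt9b and Fzd4 because they were the members higher in Cd73P by at least 1.5-fold in both genotypes. Each runs from 250 bases before to 50 after the RefSeq transcription start on the build GRCm38.p6, is printed 5′ to 3′ on the strand of the gene, and has the CG dinucleotides in capitals. CG content is shown because Polycomb complex PRC2, of which Ezh2 is the methyltransferase, is known to occupy CG-rich promoters. The windows are chr2:80447347-80447646 (minus strand) for Frzb, chr1:64737701-64738000 (minus strand) for Fzd5, chr11:103749772-103750071 (minus strand) for Wnt9b and chr7:89404116-89404415 (plus strand) for Fzd4.
Frzb: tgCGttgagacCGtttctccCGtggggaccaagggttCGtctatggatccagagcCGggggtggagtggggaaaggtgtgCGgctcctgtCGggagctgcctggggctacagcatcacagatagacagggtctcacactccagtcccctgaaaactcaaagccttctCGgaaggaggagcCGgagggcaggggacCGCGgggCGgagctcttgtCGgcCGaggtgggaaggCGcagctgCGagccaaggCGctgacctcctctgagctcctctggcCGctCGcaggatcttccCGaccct
Fzd5: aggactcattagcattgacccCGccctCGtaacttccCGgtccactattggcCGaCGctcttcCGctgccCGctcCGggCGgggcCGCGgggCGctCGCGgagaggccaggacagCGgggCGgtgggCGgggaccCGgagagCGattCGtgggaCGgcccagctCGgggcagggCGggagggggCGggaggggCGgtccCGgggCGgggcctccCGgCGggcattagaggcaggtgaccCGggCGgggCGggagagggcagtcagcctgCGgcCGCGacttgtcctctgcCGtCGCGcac
Wnt9b: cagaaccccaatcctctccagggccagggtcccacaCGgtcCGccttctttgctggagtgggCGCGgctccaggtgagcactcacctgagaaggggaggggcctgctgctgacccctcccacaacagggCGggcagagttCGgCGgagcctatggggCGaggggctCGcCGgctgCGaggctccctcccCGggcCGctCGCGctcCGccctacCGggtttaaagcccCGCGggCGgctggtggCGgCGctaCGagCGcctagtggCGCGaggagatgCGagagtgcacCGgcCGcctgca
Fzd4: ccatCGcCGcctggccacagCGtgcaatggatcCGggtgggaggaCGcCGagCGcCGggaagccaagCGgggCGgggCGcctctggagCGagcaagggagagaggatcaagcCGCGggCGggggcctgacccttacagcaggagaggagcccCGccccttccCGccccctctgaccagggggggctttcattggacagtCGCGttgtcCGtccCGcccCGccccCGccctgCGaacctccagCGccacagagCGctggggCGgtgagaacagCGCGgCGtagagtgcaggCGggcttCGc

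These windows hold 20 CG dinucleotides for Frzb, 38 for Fzd5, 29 for Wnt9b and 32 for Fzd4. Among all 32851 promoters of the same length in the RefSeq table the median was 7, and 73.5%, 95.0%, 87.1% and 90.5% of them held fewer than Frzb, Fzd5, Wnt9b and Fzd4. A promoter was matched for 26 of the 38 members, some with more than 1 start, and their 29 promoters had a median of 26 CG dinucleotides and a range of 4 to 58. The CG content was high both for members that differed between genotypes and for members that did not, such as Wnt9a with 58 and Wnt2b with 43. The letters TAATCC, the core bound by the photoreceptor factors Crx and Otx2, were found on either strand in 3 member promoters and in 7.06% of all promoters. The letters CTTTGAT, the Tcf/Lef core, were found on either strand in 2 member promoters and in 3.73% of all, and no member promoter held both. Neither was present in the 4 windows printed above.

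To ask how Wnt signalling genes in the retinal cells other than rods differ without Ezh2, Cd73N Ezh2-cKO was compared with Cd73N WT. Of the 38 genes, 12 were higher by at least 1.5-fold and 0 were lower, against 7.18% of all 21699 genes higher and 1.71% lower, so that the members' share of 31.6% lay above the background share. Because the set was chosen with earlier results of these data known, this gap was not tested. The 12 higher genes were 6 of 10 Frizzleds (Fzd1, Fzd5, Fzd6, Fzd7, Fzd8 and Fzd9), 3 of 19 ligands (Wnt5a, Wnt5b and Wnt6), 2 of 5 secreted Frizzled-related proteins (Sfrp1 and Frzb) and 1 of 4 Dickkopf genes (Dkk3). The median log2 ratio was 0.09 over the 38 genes and 0 over all genes, and 18 of the 38 reached 1 FPKM in either library. The Frizzleds had a median log2 ratio of 0.97 and the ligands 0.01. The plot of genotype ratios places these 12 genes, apart from the weakly expressed Wnt6, to the right of the dashed line in Cd73N.

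**Figure D2:**
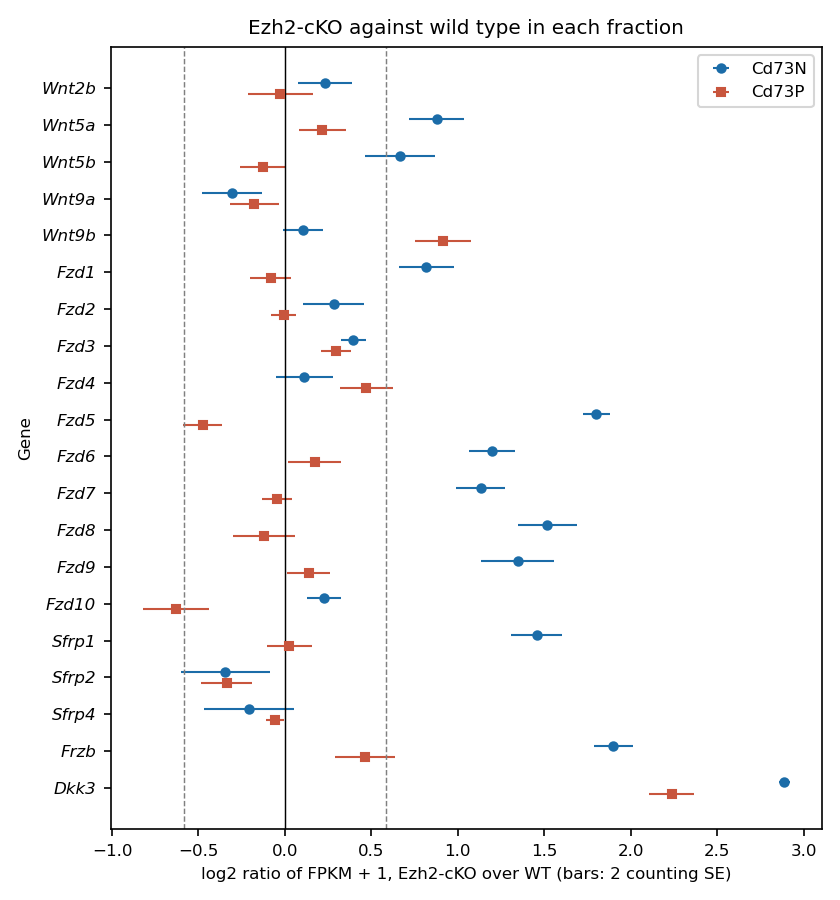
Log2 ratio of FPKM + 1 of Ezh2-cKO over WT for the 20 genes that reached 1 FPKM, in Cd73N (circles) and Cd73P (squares), with bars of 2 counting SE and dashed lines at 1.5-fold. In Cd73N 11 of the plotted genes lie above the upper line, and in Cd73P only Dkk3 at 2.24 and Wnt9b at 0.91 do.

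Among the ligands, Wnt5a, known for signalling without beta-catenin, was at 0.873 FPKM in Cd73N WT, 2.44 in Cd73N Ezh2-cKO, 0.337 in Cd73P WT and 0.553 in Cd73P Ezh2-cKO. Its log2 ratio between genotypes was 0.88 (SE 0.080) in Cd73N and 0.22 (SE 0.069) in Cd73P. Wnt5a was thus highest in Cd73N Ezh2-cKO and lowest in Cd73P WT. Its close relative Wnt5b (chr6:119382549-119494365, mm9) was at 2.02, 3.80, 0.221 and 0.116 FPKM in the same order, with a log2 ratio of 0.67 (SE 0.10) in Cd73N. This was the smallest of the 12 ratios, and the nearest gene below the threshold was Fzd3 at 0.40. The row of Wnt5b overlaps Fbxl14, which was at 5.83 to 7.16 FPKM in all libraries, and reads of overlapping genes cannot be told apart without strand. Wnt6 was listed at 0 in both Cd73P libraries and was at 0.0579 FPKM in Cd73N WT and 0.784 in Cd73N Ezh2-cKO, below 1 FPKM throughout, and its log2 ratio there was 0.75 (SE 0.086).

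The other ligands above 1 FPKM in Cd73N did not pass 1.5-fold there. Wnt9a was at 2.88 FPKM in Cd73N WT and 2.14 in Cd73N Ezh2-cKO, and at 0.413 and 0.250 in Cd73P WT and Ezh2-cKO. Its log2 ratio between genotypes was -0.31 (SE 0.087) in Cd73N. It was the ligand with the highest level in Cd73N WT, with 39.8% of the Wnt sum, and Wnt5b took that place in Cd73N Ezh2-cKO with 35.0%.

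The receptors were led by Fzd5 (chr1:64777132-64784324, mm9), which is required in early eye development. It was at 8.04 FPKM in Cd73N WT and 30.5 in Cd73N Ezh2-cKO, and at 3.99 in Cd73P WT and 2.59 in Cd73P Ezh2-cKO. The log2 ratio between genotypes was 1.80 (SE 0.040) in Cd73N and -0.48 (SE 0.057) in Cd73P, where it lay just inside the 1.5-fold limits. Fzd5 was therefore higher in Ezh2-cKO in Cd73N and had its lowest value of all in Cd73P Ezh2-cKO. Fzd8, the closest relative of Fzd5, was at 1.83, 7.10, 0.894 and 0.743 FPKM in the order Cd73N WT, Cd73N Ezh2-cKO, Cd73P WT and Cd73P Ezh2-cKO. Its log2 ratio was 1.52 (SE 0.084) in Cd73N and -0.12 (SE 0.090) in Cd73P, the same signs as for Fzd5.

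Fzd1, Fzd2 and Fzd7 form a second group of close relatives. Fzd7 was at 1.19 FPKM in Cd73N WT and 3.79 in Cd73N Ezh2-cKO, with 0.161 and 0.123 FPKM in Cd73P, and its log2 ratio in Cd73N was 1.13 (SE 0.072). Fzd1 was at 1.23 and 2.92 FPKM in Cd73N, a log2 ratio of 0.82 (SE 0.080), and at 0.321 and 0.247 FPKM in Cd73P. Fzd2 was at 3.23 FPKM in Cd73N WT and 4.14 in Cd73N Ezh2-cKO, with 0.0731 and 0.0676 FPKM in Cd73P, and its log2 ratio in Cd73N was 0.28 (SE 0.088). Fzd2 had the highest level of the group in Cd73N WT and was the one that did not pass 1.5-fold.

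Fzd3 and Fzd6, relatives that act in axon growth and in planar polarity, were on different sides of the threshold in Cd73N. Fzd6 was at 2.26 FPKM in Cd73N WT, 6.47 in Cd73N Ezh2-cKO, 1.72 in Cd73P WT and 2.06 in Cd73P Ezh2-cKO. Its log2 ratio between genotypes was 1.198 (SE 0.066) in Cd73N and 0.17 (SE 0.076) in Cd73P. Fzd3 was at 4.80, 6.63, 1.76 and 2.39 FPKM in the same order of libraries, with log2 ratios of 0.40 (SE 0.037) and 0.29 (SE 0.043). The ratios of Fzd3 differed less between fractions than those of Fzd6.

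The group of Fzd4, Fzd9 and Fzd10 was the least uniform. Fzd9 was at 0.611 FPKM in Cd73N WT, 3.09 in Cd73N Ezh2-cKO, 0.0799 in Cd73P WT and 0.188 in Cd73P Ezh2-cKO, and its log2 ratio in Cd73N was 1.35 (SE 0.10). Fzd10 (chr5:129106981-129109968, mm9), the receptor with the highest level in Cd73N WT, was at 16.5 FPKM there, 19.4 in Cd73N Ezh2-cKO, 1.31 in Cd73P WT and 0.491 in Cd73P Ezh2-cKO. Its log2 ratio between genotypes was 0.23 (SE 0.049) in Cd73N and -0.63 (SE 0.096) in Cd73P. Fzd4 is described with the comparison of fractions below, its values in Cd73N being 2.78 FPKM in WT and 3.09 in Ezh2-cKO. Of these relatives Fzd9 passed 1.5-fold in Cd73N, while Fzd4 at 0.11 (SE 0.083) and Fzd10 did not.

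Among the secreted proteins, Dkk3 (chr7:119259533-119302571, mm9) had the highest level and the largest ratio of all 38 genes. It is the most divergent Dickkopf and is not a typical blocker of the co-receptors. Dkk3 was at 123 FPKM in Cd73N WT, 916 in Cd73N Ezh2-cKO, 5.32 in Cd73P WT and 28.8 in Cd73P Ezh2-cKO. The FPKM was 7.46-fold higher in Ezh2-cKO in Cd73N and 5.41-fold higher in Cd73P, with log2 ratios of 2.89 (SE 0.015) and 2.24 (SE 0.064). By size of ratio it ranked 19 of 21699 genes from the top in Cd73N and 11 of 21700 in Cd73P. The Cre driver carries the name of this gene, what Dkk3 sequence it contains is not given in the sources used here, and reads from a driver and from the gene cannot be told apart. The deposited FPKM of Dkk3 also lay above its own upper bound in 3 of the 4 libraries, so that its SE rests on bounds that miss the value.

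Frzb (chr2:80252127-80287553, mm9), a secreted protein with the Wnt-binding domain of a Frizzled, was at 7.52 FPKM in Cd73N WT, 30.8 in Cd73N Ezh2-cKO, 0.305 in Cd73P WT and 0.798 in Cd73P Ezh2-cKO. The log2 ratio between genotypes was 1.90 (SE 0.057) in Cd73N and 0.46 (SE 0.087) in Cd73P. Sfrp1, of the same family, was at 1.49, 5.83, 0.419 and 0.445 FPKM in that order, with log2 ratios of 1.46 (SE 0.074) and 0.03 (SE 0.065). Frzb and Sfrp1 were thus highest in Cd73N Ezh2-cKO, where the FPKM of Frzb lay above its own upper bound. Sfrp2 was at 3.29, 2.38, 0.351 and 0.0702 FPKM, and its log2 ratio was -0.34 in both fractions (SE 0.13 in Cd73N and 0.074 in Cd73P). With a pseudocount of 0.1 in place of 1, the ratio of Sfrp2 was -0.45 in Cd73N and -1.41 in Cd73P. Sfrp4 was at 1.08, 0.801 and 0.0420 FPKM and was listed at 0 in Cd73P Ezh2-cKO, with a log2 ratio of -0.21 (SE 0.13) in Cd73N. Neither Sfrp2 nor Sfrp4 passed 1.5-fold between genotypes at the pseudocount of 1.

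Markers of Müller glia were also higher in this comparison. Their list was chosen with earlier results of these data known. Apoe, Rlbp1 and Slc1a3 on it are among the genes that the authors listed as most upregulated in Cd73N Ezh2-cKO. The authors count Dkk3, from that same published list, as related to Müller glia too. The 10 Müller glia markers summed to 974 FPKM in Cd73N WT and 4680 in Cd73N Ezh2-cKO, 9 of 10 were higher by at least 1.5-fold and their median log2 ratio was 2.09. They include Glul, the glutamine synthetase of glia, at 257 and 1760 FPKM, and Rlbp1, a retinoid binding protein, at 115 and 499 FPKM. The plot with the Müller glia markers shows Dkk3, Frzb and Fzd5 beside them. Cone markers summed to 2675 FPKM in Cd73N WT and 4045 in Cd73N Ezh2-cKO, and bipolar cell markers to 1987 and 1136. Of the 7 rod markers 5 were lower by at least 1.5-fold in Cd73N Ezh2-cKO, and the median of the 7 log2 ratios was -0.95. The 4 astrocyte markers summed to 7.51 and 19.1 FPKM with 2 of 4 higher, among them Gfap, the glial filament protein that stressed Müller glia also make, at 2.86 and 11.4. The 5 microglia markers summed to 41.0 and 63.0 FPKM, 4 of them past 1.5-fold, and the 6 endothelial markers to 30.6 and 96.4, of which Kdr made up 22.6 and 86.2 while Pecam1 was at 0.928 and 1.07 and Cdh5 at 0.388 and 0.477. The 4 markers of dividing cells summed to 2.28 and 2.09 FPKM. In bulk RNA more cells of a type and more RNA per cell cannot be told apart, and the part of these cell types in the higher Wnt pathway levels was not tested.

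**Figure D3:**
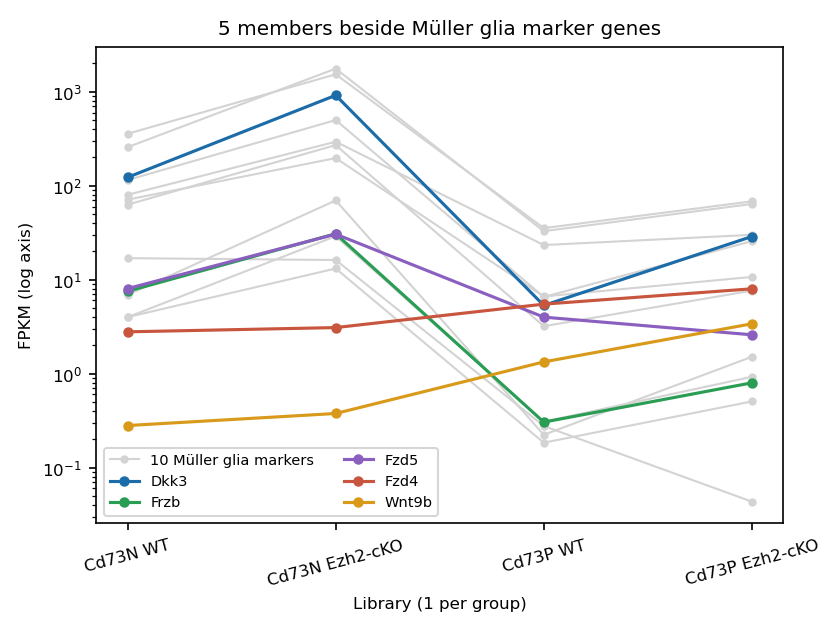
FPKM on a log axis in the 4 libraries (1 per group) of Dkk3, Frzb, Fzd5, Fzd4 and Wnt9b (coloured lines) and of the 10 Müller glia markers (grey lines), the lines joining the values of 1 gene. Dkk3, Frzb and Fzd5 peak in Cd73N Ezh2-cKO as 9 of the 10 markers do, whereas Fzd4 and Wnt9b are highest in Cd73P Ezh2-cKO at 7.99 and 3.39 FPKM.

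In rods, Cd73P Ezh2-cKO was compared with Cd73P WT. Of the 38 genes, 2 were higher by at least 1.5-fold, Dkk3 and Wnt9b, against 2.26% of all 21700 genes, and 1 was lower, Fzd10, against 2.38%. These shares of 5.26% and 2.63% rest on 3 genes, and 8 of the 38 reached 1 FPKM in either library. The median log2 ratio was 0 over the members and 0 over all genes.

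Wnt9b (chr11:103588677-103611135, mm9), known as an inducing signal in kidney development, was at 0.280 FPKM in Cd73N WT, 0.376 in Cd73N Ezh2-cKO, 1.33 in Cd73P WT and 3.39 in Cd73P Ezh2-cKO. The FPKM was 2.54-fold higher in Ezh2-cKO in Cd73P, a log2 ratio of 0.91 (SE 0.081), which ranked 198 of 21700 genes from the top. In Cd73N the log2 ratio was 0.10 (SE 0.059). Both Cd73P libraries were above both Cd73N libraries, and Wnt9b was the ligand with the highest level in Cd73P, with 29.3% of the Wnt sum in WT and 53.0% in Ezh2-cKO. Its neighbour on chromosome 11 is Wnt3, 24354 bases away, which stayed under 1 FPKM at 0.215 and 0.143 in Cd73N WT and Ezh2-cKO and 0.681 and 0.253 in Cd73P WT and Ezh2-cKO. In Cd73P the log2 ratio of Wnt3 was -0.42 (SE 0.078), the opposite sign to that of Wnt9b. Müller glia markers were higher in this comparison too, with sums of 109 and 209 FPKM and 6 of 10 past 1.5-fold, and 1 of the 7 rod markers passed. Bipolar cell markers summed to 180 FPKM in Cd73P WT and 61.9 in Cd73P Ezh2-cKO, with 6 of 8 lower by at least 1.5-fold, and cone markers to 160.2 and 84.7 with 5 of 6 lower, as was Fzd10. Their part in the Cd73P ratios was not tested.

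To see which members belong to rods and which to other retinal cells, Cd73P was compared with Cd73N within each genotype. In WT, 2 of the 38 genes were higher in Cd73P by at least 1.5-fold, Fzd4 and Wnt9b, against 9.07% of all 21698 genes, and 13 were lower, against 27.9%. In Ezh2-cKO, 3 were higher, Fzd4, Wnt9b and Wnt16, against 8.4% of all 21697 genes, and 18 were lower, against 29.1%. The members' shares were thus 5.26% and 34.2% in WT and 7.89% and 47.4% in Ezh2-cKO. Their median log2 ratio was -0.14 in WT and -0.25 in Ezh2-cKO, and over all genes it was -0.05 and -0.09. Lower in Cd73P were 6 of 10 Frizzleds in WT and 9 of 10 in Ezh2-cKO, and 4 of 5 secreted Frizzled-related proteins in both. The comparisons share libraries with those between genotypes, so a gene that was higher in Cd73N Ezh2-cKO has a more negative ratio between fractions in Ezh2-cKO.

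**Figure D4:**
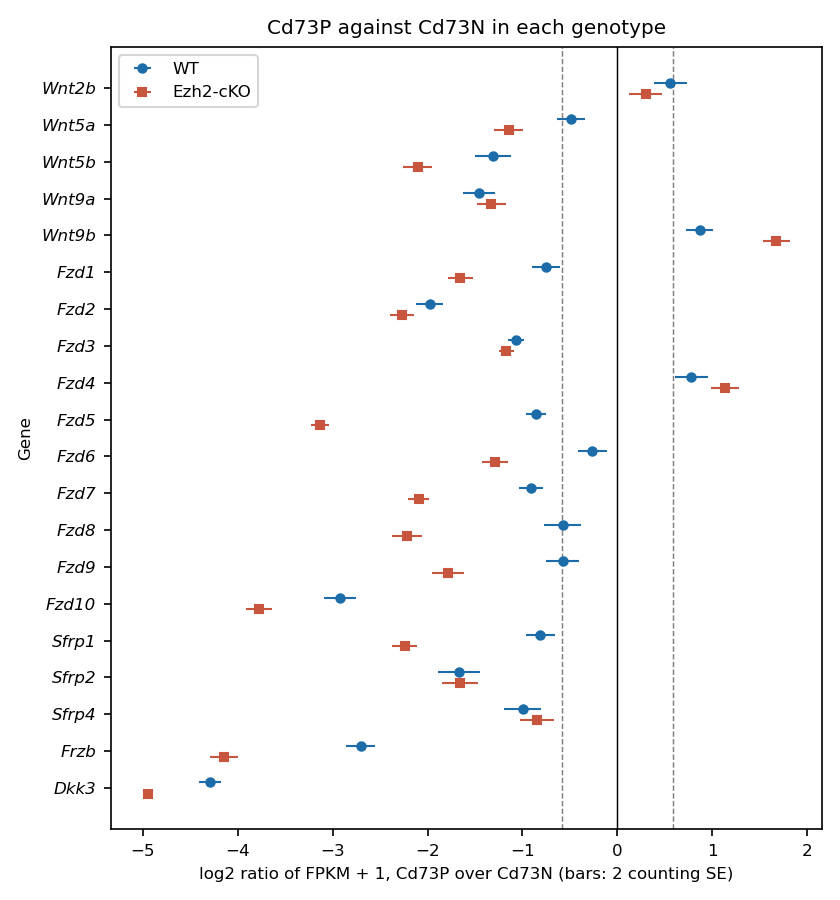
Log2 ratio of FPKM + 1 of Cd73P over Cd73N for the 20 genes that reached 1 FPKM, in WT (circles) and Ezh2-cKO (squares), with bars of 2 counting SE and dashed lines at 1.5-fold. Fzd4 and Wnt9b lie above the upper line in both genotypes, Wnt2b lies between the lines in both, and Dkk3 has the lowest ratios at -4.29 in WT and -4.94 in Ezh2-cKO.

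Fzd4 (chr7:96552876-96558620, mm9), the Norrin receptor, was at 2.78 FPKM in Cd73N WT, 3.09 in Cd73N Ezh2-cKO, 5.49 in Cd73P WT and 7.99 in Cd73P Ezh2-cKO. The log2 ratio of Cd73P over Cd73N was 0.78 (SE 0.087) in WT and 1.14 (SE 0.073) in Ezh2-cKO. Its level in Cd73P was 197% of that in Cd73N in WT and 259% in Ezh2-cKO. Fzd4 was the only Frizzled with a higher level in Cd73P than in Cd73N in either genotype. For Wnt9b the log2 ratio between fractions was 0.87 (SE 0.071) in WT and 1.67 (SE 0.071) in Ezh2-cKO. The genes that mark endothelium, where Fzd4 acts in vessel growth, summed to 8.56 FPKM in Cd73P WT and 7.39 in Cd73P Ezh2-cKO, below the Cd73N sums given above, which were mostly Kdr. Among the other endothelial markers Pecam1 was higher in Cd73P, at 2.25 FPKM in WT and 2.85 in Ezh2-cKO against 0.928 and 1.07 in Cd73N, while Cldn5 was at 3.08, 5.09, 4.02 and 1.09 FPKM and Cdh5 at 0.388, 0.477, 0.610 and 0.1502 over Cd73N WT, Cd73N Ezh2-cKO, Cd73P WT and Cd73P Ezh2-cKO. The part of endothelium in the level of Fzd4 was not tested.

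Wnt2b, a ligand of the margin of the eye, did not pass the threshold in either genotype. It was at 0.442 FPKM in Cd73N WT, 0.696 in Cd73N Ezh2-cKO, 1.12 in Cd73P WT and 1.09 in Cd73P Ezh2-cKO. Its log2 ratio of Cd73P over Cd73N was 0.56 (SE 0.086) in WT and 0.30 (SE 0.086) in Ezh2-cKO. The 6 markers of retinal pigment epithelium, which abuts the photoreceptors, summed to 1.58 and 1.16 FPKM in Cd73N and 6.73 and 4.67 in Cd73P, and their part in the levels of Wnt2b, Wnt9b and Fzd4 was not tested. Wnt16 was listed at 0 in both Cd73N libraries and was at 0.194 FPKM in Cd73P WT and 0.532 in Cd73P Ezh2-cKO, so no fold is given.

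At the other end, some members had only a small part of their level in Cd73P. The Cd73P level of Fzd2 was 2.26% of that in Cd73N in WT and 1.63% in Ezh2-cKO. For Sfrp4 it was 3.88% in WT, with a listed 0 in Cd73P Ezh2-cKO. For Frzb it was 4.05% and 2.59%, for Dkk3 4.33% and 3.14%, and for Fzd10 7.92% and 2.53%. Müller glia markers summed over the list stood at 11.2% in WT and 4.47% in Ezh2-cKO. Each of these percentages lay below that of the summed glial markers of the same genotype. That sum is weighted toward abundant markers, and single markers varied widely. In WT, Clu was at 80.0 FPKM in Cd73N and 23.3 in Cd73P, Aqp4 at 6.89 and 0.223, and Abcc9 at 16.9 and 0.277. The comparison with the sum therefore does not place these members below single glial markers. Fzd5 was at 49.6% in WT and 8.49% in Ezh2-cKO, with log2 ratios of -0.86 (SE 0.052) and -3.13 (SE 0.046), the widest gap between genotypes among the members named.

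Several other members were lower in Cd73P. The log2 ratio of Wnt9a was -1.46 in WT and -1.33 in Ezh2-cKO, and that of Wnt5b was -1.31 and -2.10. Fzd3 stood at -1.07 and -1.17, Sfrp2 at -1.67 and -1.66, and, on the same scale, Sfrp4 at -0.999 and -0.85. Of these, Wnt5b had the widest gap between genotypes. Fzd6, Fzd8 and Fzd9 were past the threshold in Ezh2-cKO at -1.29, -2.22 and -1.79, and at -0.26, -0.58 and -0.58 were not past it in WT. Wnt5a stood at -0.49 in WT and -1.15 in Ezh2-cKO. Whether the ratios differ between genotypes was not tested.

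The remaining members were below 1 FPKM in every library. Sfrp5 reached 0.521 FPKM and Dkk2 0.274, each in Cd73N Ezh2-cKO. Wnt4 reached 0.163 FPKM, Wnt10b 0.161, Wnt7a 0.116 and Wnt11 0.1002. Wnt7b reached 0.0681 FPKM, Wnt8a 0.0640, Wnt10a 0.0513, Wnt8b 0.0455, Wnt1 0.0166, Wnt2 0.0113 and Wnt3a 0.0085. Dkk1, the classical blocker of the co-receptors, reached 0.0488 FPKM and Dkk4 0.0162, so that Dkk3 made up nearly the whole Dickkopf level in every library. Wnt1 and Wnt10b lie 11707 bases apart on chromosome 15, and Wnt6 and Wnt10a 6700 bases apart on chromosome 1. Of these only Wnt6 was counted as different between genotypes.

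The other genes of the pathway were taken from a list of 54 ordered by role, all found in the tables. Between genotypes in Cd73N, 16 of the 54 were higher by at least 1.5-fold and 0 lower, beside 7.18% and 1.71% of all genes. In Cd73P 0 of the 54 were higher and 0 lower, beside 2.26% and 2.38% of all genes. The median log2 ratio of the 54 was 0.08 in Cd73N and 0.02 in Cd73P. The higher genes were 5 of 9 of the R-spondin branch, 3 of 8 co-receptors and alternative receptors, 3 of 8 nuclear effectors, both genes of the Norrin branch, 2 of 7 feedback and target genes and 1 of 3 genes of secretion and processing. None of the 10 genes of cytoplasmic transduction and none of the 7 other extracellular antagonists was among them. The plot of pathway genes by role shows the spread within each role.

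**Figure D5:**
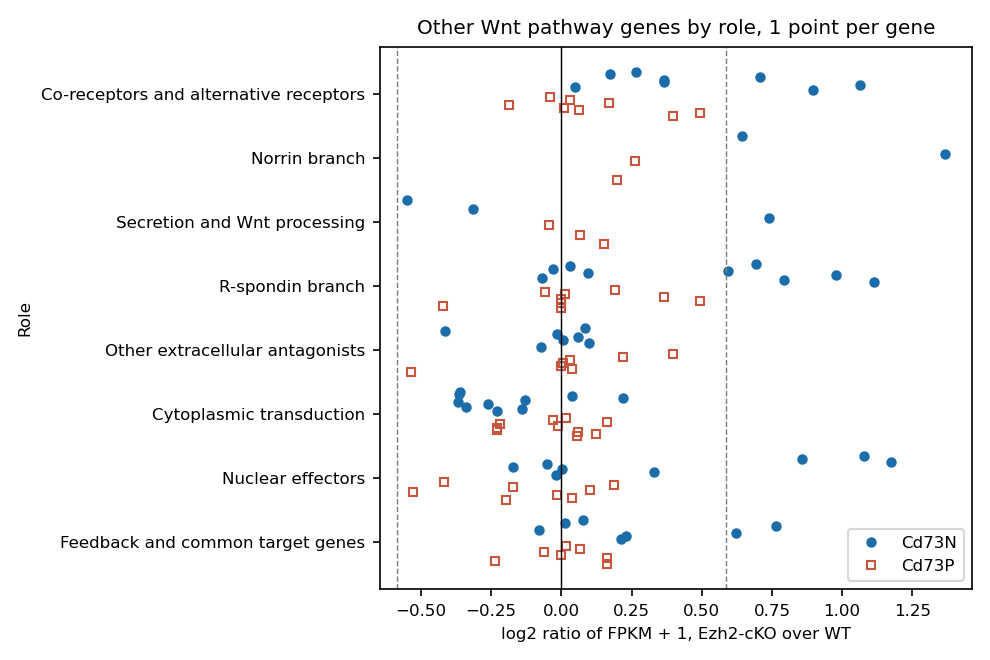
Log2 ratio of FPKM + 1 of Ezh2-cKO over WT for the 54 other genes of the pathway, 1 point per gene and 1 row per role, in Cd73N (filled circles) and Cd73P (open squares), with dashed lines at 1.5-fold. In Cd73N 16 points lie beyond the upper line and 0 beyond the lower, and in Cd73P 0 points lie beyond either.

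On the receptor side, Lrp5, a co-receptor of Wnt and Norrin, was at 2.86 FPKM in Cd73N WT and 7.08 in Cd73N Ezh2-cKO, with a log2 ratio of 1.06 (SE 0.065). Kremen1, a receptor for Dickkopf proteins, was at 8.10 and 15.9 FPKM, a log2 ratio of 0.90 (SE 0.047), and Ror1, a receptor of Wnt5a, at 0.336 and 1.18, a log2 ratio of 0.71 (SE 0.079). The 3 genes had log2 ratios of 0.06, 0.40 and 0.17 in Cd73P. Norrin itself, encoded by Ndp on the X chromosome, was at 2.31 FPKM in Cd73N WT and 7.55 in Cd73N Ezh2-cKO, and at 0.0631 and 0.220 in Cd73P. Its log2 ratio of 1.37 (SE 0.11) in Cd73N was the largest of the 54. Tspan12, the tetraspanin of the Norrin receptor, was at 4.61 and 7.765 FPKM, a log2 ratio of 0.64 (SE 0.085). The ligand and the tetraspanin of this branch were therefore higher in Cd73N Ezh2-cKO, while the receptor Fzd4 was at 2.78 and 3.09 FPKM there.

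R-spondins strengthen Wnt signalling through Lgr receptors by removing Rnf43 and Znrf3, ubiquitin ligases that clear Frizzleds from the surface. Lgr4 was at 6.90 FPKM in Cd73N WT and 16.1 in Cd73N Ezh2-cKO, with 9.68 FPKM in both Cd73P libraries, and its log2 ratio in Cd73N was 1.11 (SE 0.047). Lgr5 was at 4.30 and 8.19 FPKM in Cd73N, a log2 ratio of 0.79 (SE 0.064). Both the receptors and the ligases that oppose them were higher in Cd73N Ezh2-cKO. Rnf43 had a log2 ratio of 0.98 (SE 0.056) at 0.0263 and 1.02 FPKM, and Znrf3 one of 0.69 (SE 0.063) at 1.75 and 3.44 FPKM. The ligand Rspo2 was at 0.344 FPKM in Cd73N WT, 1.03 in Cd73N Ezh2-cKO, 5.24 in Cd73P WT and 7.05 in Cd73P Ezh2-cKO. Its log2 ratio between genotypes in Cd73N was 0.59 (SE 0.083), at the threshold, and its ratio of Cd73P over Cd73N in WT was 2.22 (SE 0.078). Rspo2 was thus, with Fzd4 and Wnt9b, among the few genes described here with a higher level in Cd73P.

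Among nuclear effectors, Tcf7 was at 1.35 FPKM in Cd73N WT and 4.30 in Cd73N Ezh2-cKO, and its log2 ratio was 1.17 (SE 0.11). Tcf7l2 was at 0.837 and 2.87 FPKM, a log2 ratio of 1.08 (SE 0.079), and Tcf7l1, whose row overlaps Gm15401, at 3.25 and 6.70, a log2 ratio of 0.86 (SE 0.081). Lef1, the other member of this factor family, stayed below 1 FPKM. Of the feedback and target genes, Nkd1, an inhibitor induced by the pathway, was at 3.78 and 7.12 FPKM in Cd73N, a log2 ratio of 0.77 (SE 0.062). Cyclin D1, encoded by Ccnd1, was at 9.06 and 14.5 FPKM, a log2 ratio of 0.62 (SE 0.055). Axin2, the most general target of beta-catenin, did not pass 1.5-fold, with 2.71 and 3.30 FPKM in Cd73N and 4.95 and 5.65 in Cd73P and a log2 ratio between genotypes of 0.21 (SE 0.077) in Cd73N and 0.16 (SE 0.071) in Cd73P. Notum, a secreted enzyme that removes the lipid from Wnt proteins, was at 0.499 and 1.5 FPKM in Cd73N, a log2 ratio of 0.74 (SE 0.12). Wls, the carrier that brings Wnt proteins to the surface, was at 10.5 FPKM in Cd73N WT and 6.86 in Cd73N Ezh2-cKO, and its log2 ratio of -0.55 (SE 0.064) lay inside the threshold.

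Between fractions, 4 of the 54 genes were higher in Cd73P in WT (Lrp6, Kremen2, Rspo2 and Axin2) and 21 were lower, beside 9.07% and 27.9% of all genes, and in Ezh2-cKO 3 were higher and 26 lower, beside 8.4% and 29.1%. Lrp6, the second co-receptor, was at 4.64 FPKM in Cd73N WT and 9.59 in Cd73P WT, a log2 ratio of 0.91 (SE 0.043), while Lrp5 was at 2.86 and 0.732, a log2 ratio of -1.16 (SE 0.072). The co-receptor with the higher level was Lrp6 in both wild-type fractions. Axin2 was at 2.71 FPKM in Cd73N WT and 4.95 in Cd73P WT, a log2 ratio of 0.68 (SE 0.077).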

How the data were processed

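Cd73N and Cd73P cells of wild-type and Ezh2-cKO retina gave 4 libraries, grouped by the titles given to the samples. Reads of 36 bases, single-end, were placed on mm9 by the authors with TopHat 2.0.8b, which kept up to 50 hits for a read and used its coverage search. From these the authors derived FPKM of RefSeq genes with Cufflinks 2.1.1 under default options, and the submitters' processing notes also name bcl2fastq 1.8.4. Reads of near-identical or overlapping genes can therefore be shared, and the kit kept no strand. Each deposited table held FPKM, its upper bound and its lower bound for 23021 rows. The deposited lower bound was handled as a score without fixed range, because 1 row of each Cd73P table held an overflow value. FPKM was not scaled between libraries, and total reads are not given, so absolute depth is unknown.

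Rows that shared a symbol (251 symbols) were summed, 733 small RNA symbols were left out, and genes of a status other than OK in a pair were left out of it. Values were compared as log2(FPKM + 1) with a 1.5-fold threshold. An SE took the width of the deposited bounds as 4 SE, and relative depth came from the same bounds over 3414 genes. No p-value was computed. Members with at least 1 FPKM in any library were named with all values and the others with their highest. Genes of the pathway list were named where they reached 1 FPKM and passed the threshold between genotypes, at most 5 per role, and others named with values (Lrp6, Kremen2, Axin2, Wls, Lef1, Ptk7, Dvl2, Axin1, Apc and Bambi) were chosen after their values were seen. The members and lists were chosen with earlier results of these data known. Coordinates of genes are the listed starts plus 1 on mm9. Of the members, 37 were matched in the annotation of that build, and 19 starts were equal. Promoters and their letters come from RefSeq on GRCm38.p6, and those of chromosome 18 were not used here. Alternatives were pseudocounts of 0.1 and 5, scaling by the median ratio or the FPKM sum, a 2-fold threshold, a minimum of 1 FPKM, rows of every status and bounds that do not overlap. The counting was tested on simulated data. The changed genes there were drawn from levels above those of most members, so changes of weakly expressed genes were not covered. Python 3.11.15, pandas 2.3.3, numpy 2.4.6 and matplotlib 3.10.9 were used.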

Additional observations from a re-analysis of the deposited data

Results flagged for a closer look

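Among the 38 members and the 54 other pathway genes, 10 had genotype ratios of opposite sign in the fractions, each ratio lying more than 2 counting SE from 0. The log2 ratio of Ezh2-cKO over WT of Fzd5 was 1.80 in Cd73N but -0.48 in Cd73P, and these differ by -2.28. For Fzd10 it was 0.23 in Cd73N but -0.63 in Cd73P, and these differ by -0.85. Tcf7l2 had 1.08 in Cd73N but -0.42 in Cd73P, a gap of -1.49, and Lgr5 had 0.79 and -0.42, a gap of -1.22. The gaps of the others, Cd73P minus Cd73N, were -0.21 for Dkk2, which stayed below 1 FPKM, -0.55 for Ptk7, -0.44 for Dvl2, -0.47 for Bambi, 0.26 for Axin1 and 0.28 for Apc. Fzd5, Tcf7l2 and Lgr5 passed 1.5-fold in Cd73N and Fzd10 in Cd73P, and none of the 10 passed it in both fractions at the pseudocount of 1. With a pseudocount of 0.1, Fzd5, Tcf7l2 and Lgr5 passed it in both, with opposite signs. They were then at 1.91, 1.67 and 0.91 in Cd73N and at -0.61, -1.01 and -1.49 in Cd73P. With a pseudocount of 5 they were at -0.24, -0.12 and -0.10 in Cd73P. With 1 library per group no such difference was tested.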

How the results depend on the processing

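Each value rests on 1 library, so the spread between animals and sorts is unknown, and no paired analysis was possible because each group held 1 library. Of the 96 counts under the alternatives, 75 stayed within 1.5 times the reported count. The counts of members and pathway genes in Cd73N between genotypes became, with a pseudocount of 0.1, 1 lower for each, with a pseudocount of 5, 6 members and 4 pathway genes higher, and with a 2-fold threshold 5 pathway genes higher. In Cd73P between genotypes a pseudocount of 0.1 gave 5 members higher and 5 lower and 8 pathway genes higher and 4 lower, and a pseudocount of 5 as well as a 2-fold threshold gave 1 member higher (Dkk3) and 0 lower. Between the WT fractions a pseudocount of 0.1 gave 6 members higher in Cd73P and 21 lower, a pseudocount of 5 gave 0 and 5, a 2-fold threshold gave 0 and 8, and scaling by the FPKM sum or by the median ratio gave 4 higher in each case. Of all genes in Cd73N between genotypes, 3.53% were lower with a pseudocount of 0.1. There 2.86% were higher with a pseudocount of 5 and 2.96% at 2-fold. In Cd73P the shares of all genes higher and lower were 6.59% and 7.89% with a pseudocount of 0.1. They were 0.834% and 0.604% with 5, and 0.742% and 0.664% at 2-fold. Between the WT fractions they were 12.3% and 37.2%, 5.67% and 18.3%, and 4.95% and 17.7% in that order. These pseudocounts weigh weakly expressed genes more or less by construction. Under scaling between the WT fractions, 14.0% of all genes (median ratio) and 15.3% (FPKM sum) were higher in Cd73P. Scaling also moved the median log2 ratio of genes with at least 1 FPKM there from -0.47 to -0.18 and -0.10 in that order. It changed the sign of 4 values. Lgr4 between genotypes in Cd73P was at 0.04 under the median ratio. Between the WT fractions Fzd6 was at 0.02 under the FPKM sum. Tcf7l2 was there at 0.13 under the median ratio and 0.17 under the FPKM sum. All 12 members higher in Cd73N Ezh2-cKO passed under both scalings. Of 576 values of single genes, 287 moved by more than 2 counting SE.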
